A study of Rattus norvegicus with 12 samples.

Results

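The interferon-induced and antigen presentation genes of rat renal cortex are described here: 42 genes, chosen by name, whose probes were found through the RefSeq accession on the array. The choice was made with earlier results of these data known. Of these, 33 belong to the antiviral arm (effectors, viral RNA sensors, transcription regulators, interferon-inducible GTPases and chemokines) and 9 to antigen presentation. Probes were matched for 40 genes (70 probes, of 15284 genes named on the array), and 39 passed the filter on dim signals, which keeps a probe where some group has all 3 of its arrays well above background. All 39 met this on all 12 arrays. Xaf1 and Nlrc5 had no matched probe. Ifit1 fell below the filter, with signal well above background on 0 control arrays and 1 treated array of the CO2-O2 experiment, and on 1 control array and 2 treated arrays of the isoflurane experiment.

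The animals were male Sprague-Dawley (Crl:CD(SD)) rats, bought at 5 weeks of age, in 4 groups of 3. Each group received either corn oil or BDCM (bromodichloromethane, which forms when drinking water is chlorinated) at 200 mg/kg per day for 4 weeks, and was bled to death under gas anaesthesia 24 h after the last dose. One experiment used a CO2-O2 mixture and the other isoflurane, so that the 4 groups were oil or BDCM under each gas. Renal cortex RNA of each animal was hybridised to its own 1-colour Agilent array. The gas is tied to the experiment, its slides and its scan days, and these cannot be told apart.

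Interferons are secreted proteins that bind cell surface receptors and, through Janus kinases and STAT and IRF transcription factors, switch on genes that block virus replication. Interferon gamma and IRF1 also raise the machinery that cuts cytosolic proteins into peptides and loads them on major histocompatibility complex (MHC) class I molecules, which nearly all cells carry. MHC class II genes depend on the transactivator CIITA and are expressed mainly by antigen-presenting cells, though tubular epithelium of the kidney can acquire them.

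Levels are given as log2 of the processed signal divided by the 75th percentile of the same array, so 0 is that percentile. They compare animals for 1 probe and not 1 gene with another. Values stand in the order of animals 1, 2 and 3 of a group, numbered by their scanner files, and differences are BDCM minus oil on the log2 scale ± SE from limma. Adjusted p covers all 34218 features tested, and a gene is said to rise or fall where it is under 0.05. The mean effect is the average of the effects in both experiments.

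On every array 67.4 to 72.5% of the non-control probes were well above background. The proximal tubule markers of renal cortex were well above background in all 12 animals (8 of 8 genes). In the mean effect 7 of 8 fell with BDCM, beside 20.4% of all features. The summed signal of 11 hepatocyte genes, in multiples of the 75th percentile, was higher in CO2-O2 than in isoflurane animals of the same treatment. It was 16.5 to 27.1 and 25.8 to 31.2 in the oil and BDCM animals of the CO2-O2 experiment. In the isoflurane experiment it was 14.6 to 16.1 and 16.4 to 20.7. Of 10 such genes tested, 1 was lower under isoflurane between the oil groups and 4 between the BDCM groups, beside 3.57% and 5.30% of all features. In bulk tissue, fewer cells of a type and less RNA per cell cannot be told apart.

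Of the 39 genes, 15 differed with BDCM in the mean effect, 10 higher and 5 lower, which is 38.5% beside 38.1% of all features. The share of genes called was therefore near the background. The higher genes were Ifi27l2b, Rsad2, Irf1, Irgm, Tap2, Psmb10, Tap1, Parp14, Ifih1 and Parp9. The lower genes were Ciita, Cd74, Cxcl9, Mx2 and B2m. Among all features 17.7% were called higher and 20.4% lower, and the median difference over all features was -0.04.

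**Figure D1:**
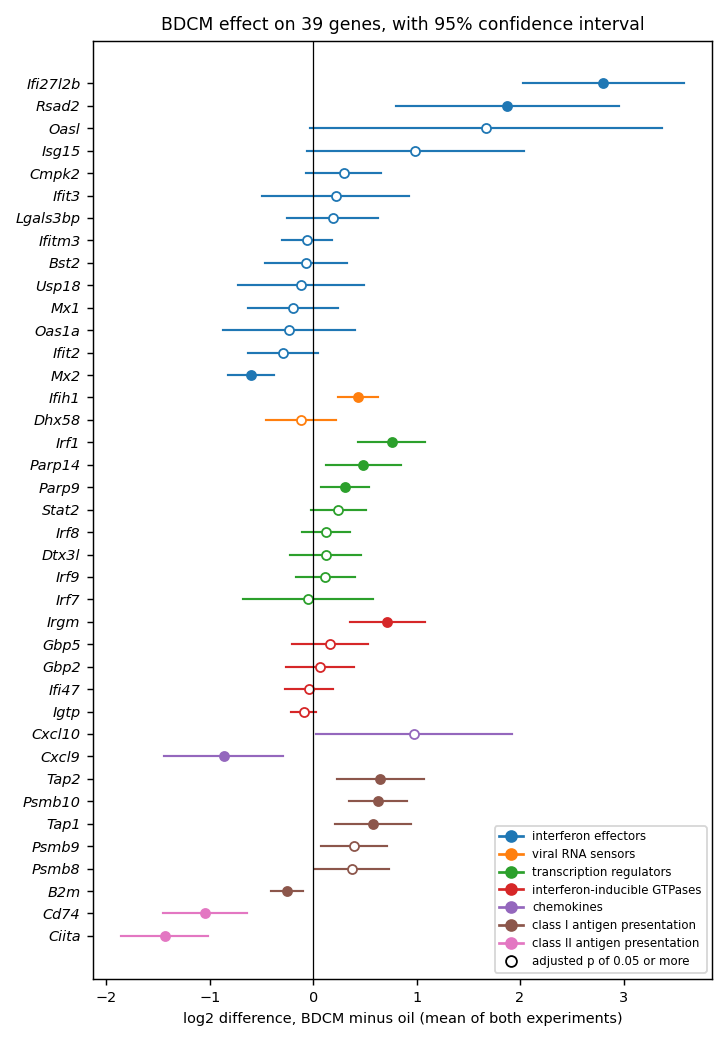
Mean BDCM effect (log2 difference, BDCM minus oil, x axis) for the 39 genes tested, with 95% confidence intervals as lines and colours for the gene groups. Filled points are the 15 genes with an adjusted p under 0.05; Ifi27l2b lies farthest to the right at 2.81 and Ciita farthest to the left at -1.43.

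Antiviral and antigen presentation genes are set side by side in counts, with no test between them. Each count below stands beside 17.7% of all features called higher and 20.4% called lower in the mean effect. Of 31 antiviral genes tested, 7 rose and 2 fell, with a median mean effect of 0.12. Of 8 antigen presentation genes tested, 3 rose and 3 fell, with a median of 0.39. The antigen presentation genes split by class: of the 6 class I genes 3 rose and 1 fell (median 0.49), and both class II genes, Cd74 and Ciita, fell. The direction was the same in both experiments for 8 of 8 antigen presentation genes and for 22 of 31 antiviral genes, beside 78.2% of all features.

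**Figure D2:**
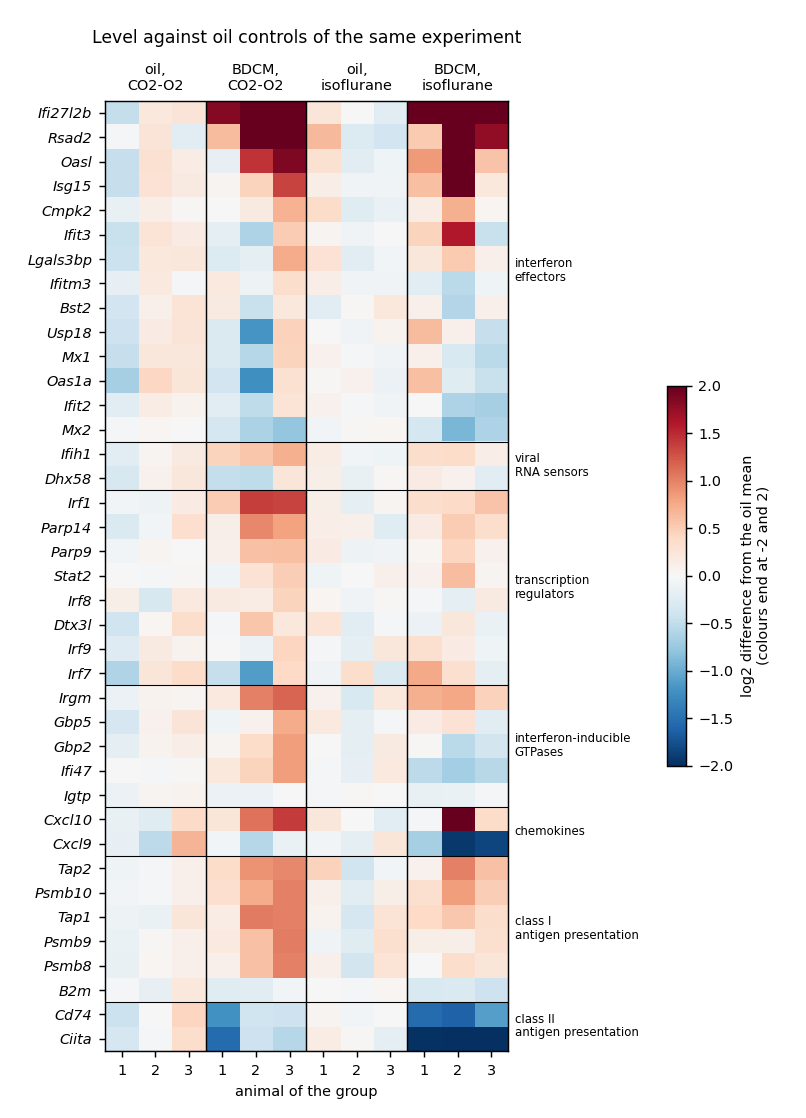
Log2 level of each gene in each of the 12 animals, minus the mean of the 3 oil controls of the same experiment (red higher, blue lower, colours end at -2 and 2), with genes in groups by role. Ifi27l2b and Rsad2 are red in all 6 BDCM animals, Ciita and Cd74 are blue in all 6, and most other antiviral genes differ between animals of 1 group.

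RefSeq promoter windows (assembly GRCr8, 250 bases before to 50 after the start of each gene, 300 bases) were at hand for 33 of the 42 genes. They were searched on both strands for the core of the interferon-stimulated response element (ISRE), GAAANNGAAA, and for the gamma-activated sequence (GAS) TTCNNNGAA. The ISRE core was present in 21 of 33 windows (63.6%), beside 3.9% of 33469 promoters. The GAS sequence was present in 12 of 33 (36.4%), beside 8.9%. Among genes with a window, the ISRE core was found in 7 of 9 that rose in the mean effect, 1 of 3 that fell and 12 of 20 that were not called. The genes were picked as interferon-induced or antigen presentation genes, so these shares describe the list and are not independent support. A match describes letters and not a bound site.

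Windows are shown for Psmb10 and Ifi47, each called in 3 comparisons, for Irf1 and Ifih1 as examples of genes called in 2, and for Tap1 and Psmb9, which are transcribed away from each other and whose windows share 44 bases. B2m, Cd74, Cxcl9 and Irgm were also called in 2 comparisons, and their windows are not shown. Of these, B2m holds the ISRE core, Cxcl9 the GAS sequence, Irgm both and Cd74 neither. Capitals mark the matches, and sequences run 5′ to 3′ on the strand of the gene. Psmb10 (chr19:50743243-50743542, minus strand) holds the ISRE core in 2 places and Tap1 (chr20:4668494-4668793, minus strand) in 1, as its reverse complement. Psmb9 (chr20:4668750-4669049, plus strand) holds neither sequence within its window. The Tap1 and Psmb9 starts are 455 bases apart, and the Tap1 match, at -121 from the Tap1 start, lies between them. Irf1 (chr10:38417685-38417984, plus strand) and Ifi47 (chr10:33798494-33798793, plus strand) hold the GAS sequence, in 1 and 2 places, and Ifih1 (chr3:67683919-67684218, minus strand) holds the ISRE core in 1.
Psmb10: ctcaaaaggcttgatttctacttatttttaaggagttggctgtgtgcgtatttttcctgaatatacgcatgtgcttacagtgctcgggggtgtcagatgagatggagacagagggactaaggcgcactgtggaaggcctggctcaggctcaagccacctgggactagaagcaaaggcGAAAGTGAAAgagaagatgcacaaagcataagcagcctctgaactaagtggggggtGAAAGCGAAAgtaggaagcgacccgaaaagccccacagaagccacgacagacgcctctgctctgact
Ifi47: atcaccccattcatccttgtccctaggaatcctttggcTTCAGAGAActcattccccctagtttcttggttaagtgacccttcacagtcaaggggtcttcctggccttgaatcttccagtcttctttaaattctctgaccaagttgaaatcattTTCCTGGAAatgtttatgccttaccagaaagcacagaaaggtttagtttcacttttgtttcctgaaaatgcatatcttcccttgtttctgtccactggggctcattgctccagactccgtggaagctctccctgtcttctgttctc
Tap1: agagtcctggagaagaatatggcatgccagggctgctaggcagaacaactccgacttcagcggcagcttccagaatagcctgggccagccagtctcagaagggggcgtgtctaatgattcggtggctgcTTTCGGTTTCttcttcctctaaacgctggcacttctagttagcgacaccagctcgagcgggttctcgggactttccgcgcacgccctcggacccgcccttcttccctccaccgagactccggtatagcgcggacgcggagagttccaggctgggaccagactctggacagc
Psmb9: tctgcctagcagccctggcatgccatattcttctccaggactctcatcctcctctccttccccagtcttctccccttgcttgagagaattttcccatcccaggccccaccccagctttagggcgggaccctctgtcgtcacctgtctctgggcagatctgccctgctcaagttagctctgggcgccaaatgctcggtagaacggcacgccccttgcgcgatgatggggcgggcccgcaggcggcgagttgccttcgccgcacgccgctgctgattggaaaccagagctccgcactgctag
Irf1: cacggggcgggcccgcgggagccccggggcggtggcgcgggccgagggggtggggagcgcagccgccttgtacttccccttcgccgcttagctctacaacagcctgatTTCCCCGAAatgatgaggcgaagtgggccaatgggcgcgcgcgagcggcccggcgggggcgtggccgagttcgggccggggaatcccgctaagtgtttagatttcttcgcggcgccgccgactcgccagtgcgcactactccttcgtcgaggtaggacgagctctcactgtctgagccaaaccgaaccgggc
Ifih1: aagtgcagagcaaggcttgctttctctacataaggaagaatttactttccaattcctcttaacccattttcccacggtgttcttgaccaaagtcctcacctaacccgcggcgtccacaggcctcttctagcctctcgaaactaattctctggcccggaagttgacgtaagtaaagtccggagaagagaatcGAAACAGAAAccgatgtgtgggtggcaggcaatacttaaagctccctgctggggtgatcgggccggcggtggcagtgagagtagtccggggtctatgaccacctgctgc

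Among the transcription regulators, 3 of 8 rose with BDCM in the mean effect and 0 fell, beside 17.7% and 20.4% of all features. Irf1, the factor that drives class I and immunoproteasome genes downstream of interferon gamma, was at 1.81, 1.76 and 2.03 in the oil animals and 2.38, 3.25 and 3.22 in the BDCM animals of the CO2-O2 experiment. In the isoflurane experiment it was at 2.13, 1.84 and 2.07 against 2.37, 2.40 and 2.59. Treated animals lay above controls without overlap in both experiments, and animals 2 and 3 of the CO2-O2 BDCM group were the highest. The mean effect was 0.76 ± 0.15 (adjusted p = 0.00256), from 1.08 ± 0.21 (adjusted p = 0.00586) under CO2-O2 and 0.44 ± 0.21 (adjusted p = 0.15) under isoflurane. The promoter of Irf1 shown above has the GAS letters and no ISRE core.

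Parp14 and Parp9 encode members of the ADP-ribosyltransferase family, the latter acting together with the ubiquitin ligase Dtx3l. Parp14 was at 1.84, 2.08 and 2.47 in oil and 2.25, 3.09 and 2.94 in BDCM animals under CO2-O2, and at 2.36, 2.33 and 1.98 against 2.38, 2.73 and 2.58 under isoflurane. The groups overlapped under CO2-O2 and did not under isoflurane, where the lowest treated animal was just above the highest control. Its mean effect was 0.48 ± 0.16 (adjusted p = 0.0387), and its 4 probes gave 0.32 to 0.48. Parp9 was at -1.58, -1.47 and -1.53 in oil and -1.43, -0.94 and -0.93 in BDCM animals under CO2-O2, and at -1.27, -1.53 and -1.50 against -1.39, -1.01 and -1.34 under isoflurane. Treated animals were separate from controls under CO2-O2 and overlapped with them under isoflurane. Its mean effect was 0.31 ± 0.11 (adjusted p = 0.0435). Both calls were lost when any 1 of several animals was left out, with the adjusted p rising to at most 0.0868 for Parp14 (without oil animal 3 of the isoflurane experiment) and 0.0953 for Parp9 (without BDCM animal 3 of the CO2-O2 experiment), and with slide as a block (0.0519 and 0.0954).

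The other regulators did not pass. Irf7, the factor that amplifies the type I interferon response, was at 0.52, 1.35 and 1.48 in oil and 0.66, -0.01 and 1.51 in BDCM animals under CO2-O2, and at 1.26, 1.69 and 1.04 against 2.08, 1.66 and 1.13 under isoflurane. All groups overlapped, and the mean effect was -0.05 with a 95% interval of -0.68 to 0.57 (adjusted p = 0.902). Stat2 (mean effect 0.24, adjusted p = 0.139), Irf8 (0.12, adjusted p = 0.383) and Irf9 (0.12, adjusted p = 0.498) lay on the higher side. For Dtx3l the probes differed: the brighter one gave 0.12 (adjusted p = 0.57) and the dimmer one 0.47 (adjusted p = 4.43e-04). The dimmer one gave 0.88 under CO2-O2 (adjusted p = 2.32e-04) and 0.06 under isoflurane (adjusted p = 0.692), by limma with each probe as its own feature.

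Of the viral RNA sensors, Ifih1 (MDA5, which binds long double-stranded RNA) rose. Its levels were -3.93, -3.65 and -3.53 in oil and -3.26, -3.15 and -3.00 in BDCM animals under CO2-O2, and -3.13, -3.33 and -3.37 against -2.93, -2.90 and -3.14 under isoflurane. The CO2-O2 groups did not overlap, whereas under isoflurane 1 control lay at the level of the lowest treated animal. Averaged over both experiments, the difference was 0.43 ± 0.09 (adjusted p = 0.00352), with 0.57 ± 0.12 (adjusted p = 0.0107) under CO2-O2. Dhx58 (LGP2), a regulator of RNA sensing without signalling domains of its own, gave -0.12 (adjusted p = 0.568).

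The effectors, proteins that block steps of viral replication, held both the largest rise and genes that did not move together. Of 14 tested, 2 rose, 1 fell and 11 did not pass, and the median mean effect was 0.06. Among all features 17.7% were called higher and 20.4% called lower. Ifi27l2b, of the family of small interferon alpha-inducible membrane proteins, was at 2.81, 3.50 and 3.54 in oil and 5.12, 6.17 and 5.67 in BDCM animals under CO2-O2. Under isoflurane it was at 3.51, 3.26 and 3.04 against 5.55, 7.80 and 6.18. Every treated animal was above every control, and the highest was BDCM animal 2 of the isoflurane experiment. The mean effect for Ifi27l2b was 2.81 ± 0.35 (6.99-fold, adjusted p = 1.97e-04), beside 3.11 for a dimmer probe, and the rise passed in each experiment (2.36 ± 0.50, adjusted p = 0.00926, and 3.25 ± 0.50, adjusted p = 0.00121). Arrays on 1 slide gave 2.88 under CO2-O2 (1 BDCM animal against 3 oil) and 3.64 under isoflurane (2 BDCM animals against 1 oil).

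Rsad2 (viperin), which makes a nucleotide that halts viral polymerases, was at 0.46, 0.76 and 0.29 in oil and 1.14, 2.85 and 3.15 in BDCM animals under CO2-O2. In the isoflurane animals Rsad2 was at 1.52, 0.60 and 0.48 against 1.40, 4.20 and 2.64. The CO2-O2 groups were separate, and the isoflurane groups overlapped through oil animal 1 and BDCM animal 1. The mean effect was 1.88 ± 0.48 (3.68-fold, adjusted p = 0.0118), and neither experiment passed alone (adjusted p = 0.0812 and 0.069), while a dimmer probe, well above background on all 12 arrays, gave a mean effect of 2.06 and passed under isoflurane (adjusted p = 0.0304). The dimmest probe was well above background on 1 of 3 control arrays in each experiment, and no effect is given for it. With slide as a block the difference was 2.33 and its adjusted p 0.0775.

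Mx2, a dynamin-like antiviral GTPase, fell. It was at 6.22, 6.30 and 6.25 in oil and 5.92, 5.63 and 5.49 in BDCM animals under CO2-O2, and at 6.27, 6.33 and 6.35 against 5.97, 5.41 and 5.70 under isoflurane. All 6 treated animals lay below all 6 controls. Averaged over both experiments, the difference was -0.60 ± 0.10 (adjusted p = 0.00116). A second, far dimmer Mx2 probe, at a mean level of -3.49 beside 5.99, gave -0.20 (adjusted p = 0.653 by limma). With the mean of both probes the adjusted p was 0.0919. Which probe reflects Mx2 RNA was not tested, so the fall is that of the brighter probe. Mx1 gave -0.19 (adjusted p = 0.47). Mx and Oas genes have close copies in the genome, so their probes can share signal.

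Isg15, a ubiquitin-like protein that is joined to other proteins during the interferon response, did not pass. Its levels were 0.00, 0.75 and 0.65 in oil and 0.53, 0.91 and 1.82 in BDCM animals under CO2-O2, and 0.65, 0.44 and 0.45 against 1.12, 3.77 and 0.72 under isoflurane. The isoflurane groups did not overlap, and BDCM animal 2 stood far above the other 11. The mean effect for Isg15 was 0.99 with a 95% interval of -0.06 to 2.04 (adjusted p = 0.126).

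Oasl, related to the 2′-5′ oligoadenylate synthetases, showed the same animal at 0.96 while the other BDCM animals lay between -5.34 and -3.30. Its mean effect was 1.67 ± 0.76 (adjusted p = 0.111). Without that animal the mean effects of Isg15, Oasl and Cxcl10 were 0.51, 0.88 and 0.54, those of Rsad2 and Ifi27l2b 1.51 (adjusted p = 0.0188) and 2.48 (adjusted p = 4.6e-05). This animal held the highest of the 12 levels in 9 of the 39 genes and in 18% of all features, and the lowest in 7 genes and in 16.1% of all features. BDCM animal 3 of the CO2-O2 experiment was highest in 15 of the 39 genes, beside 7.23% of all features. Oil animal 1 of the CO2-O2 experiment was lowest in 12, beside 8.12% of all features.

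The remaining effectors had mean effects from -0.29 (Ifit2, adjusted p = 0.162) to 0.29 (Cmpk2, adjusted p = 0.185). They included Ifit3 (0.22), Lgals3bp (0.19), Ifitm3 (-0.06), Bst2 (-0.07), Usp18 (-0.12) and Oas1a (-0.23), and none of these passed. Usp18, which removes Isg15 from proteins, and Oas1a, which makes the activator of RNase L, were lowest in BDCM animal 2 of the CO2-O2 experiment, at -3.25 and -0.48. Rsad2 was at 2.85 in that same animal, among its highest values. A second Cmpk2 probe gave 0.51 (adjusted p = 0.0376).

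**Figure D3:**
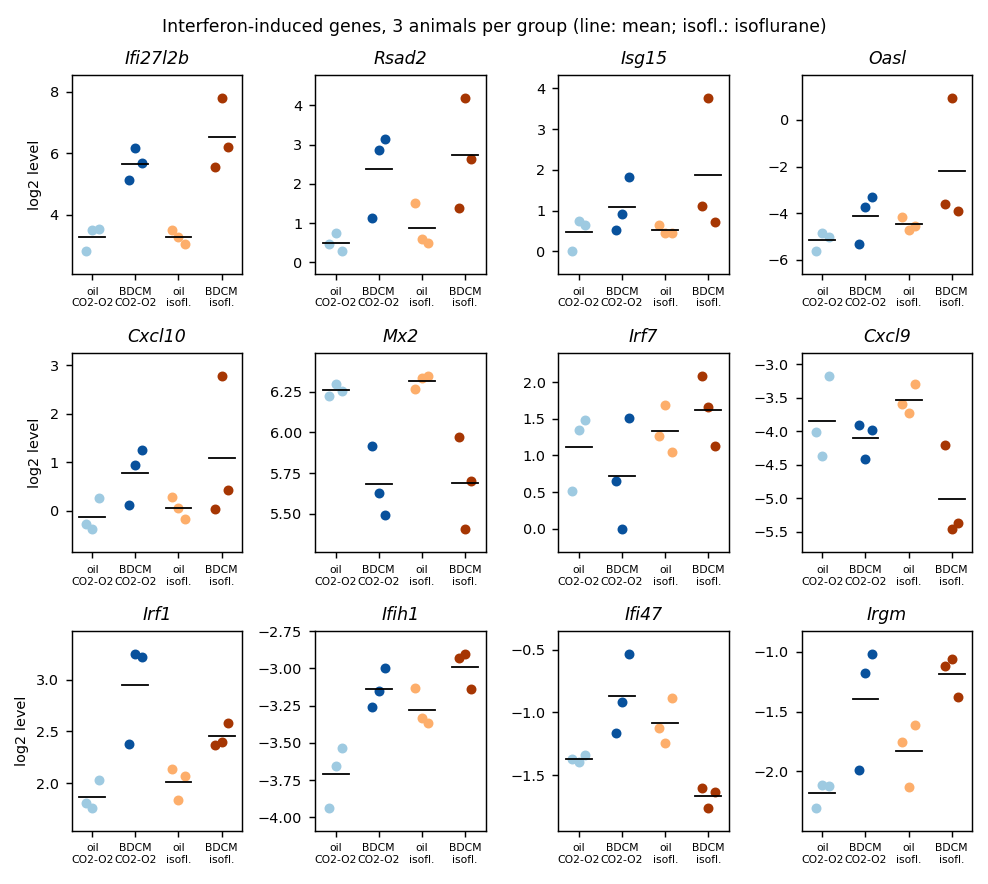
Log2 level (0 is the 75th percentile of the array) of 12 antiviral genes in each animal, as points, with the group mean as a line; each panel has its own y axis. Ifi27l2b separates all treated from all control animals, and for Isg15, Oasl and Cxcl10 1 BDCM animal of the isoflurane experiment lies far above the rest.

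The interferon-inducible GTPases act at membranes of vacuoles that hold intracellular pathogens. Irgm rose: it was at -2.31, -2.12 and -2.12 in oil and -1.99, -1.18 and -1.02 in BDCM animals under CO2-O2, and at -1.75, -2.13 and -1.62 against -1.12, -1.06 and -1.38 under isoflurane. Neither experiment showed overlap between its groups. The mean effect was 0.72 ± 0.16 (adjusted p = 0.00642), and with slide as a block the adjusted p was 0.0641. Gbp2 (0.06), Gbp5 (0.16) and Igtp (-0.09) did not pass. A second, far dimmer Igtp probe, at a mean level of 0.29 beside 7.03, gave 0.37 (adjusted p = 0.0151).

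Ifi47 was called in opposite directions in the 2 experiments, though the difference between its effects did not pass (adjusted p = 0.895 by limma). Under CO2-O2 it was at -1.37, -1.40 and -1.34 in oil and -1.16, -0.92 and -0.53 in BDCM animals, all treated above all controls. Under isoflurane it was at -1.12, -1.24 and -0.88 against -1.60, -1.76 and -1.64, all treated below all controls. It rose by 0.50 ± 0.15 (adjusted p = 0.0399) in the former and fell by 0.58 ± 0.15 (adjusted p = 0.0166) in the latter. The first call was lost on leaving out any of 7 animals, with adjusted p of at most 0.112 (without BDCM animal 3 of the CO2-O2 experiment). The second was lost without oil animal 3 (0.0608) or BDCM animal 2 (0.0619) of its experiment. With slide as a block both calls were lost (0.45, adjusted p = 0.232, and -0.80, adjusted p = 0.0855), and the first was lost with scan day as a block too (0.232).

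The chemokines Cxcl9 and Cxcl10 both bind the receptor CXCR3 of activated lymphocytes. Cxcl9 was at -4.01, -4.37 and -3.17 in oil and -3.90, -4.42 and -3.98 in BDCM animals under CO2-O2, where the groups overlapped. In the isoflurane animals Cxcl9 was at -3.60, -3.73 and -3.30 against -4.21, -5.46 and -5.38, with all treated below all controls. Averaged over both experiments, the difference was -0.86 ± 0.26 (adjusted p = 0.0239), and the fall passed under isoflurane alone (-1.48 ± 0.37, adjusted p = 0.0154). The mean call was lost without BDCM animal 2 of the CO2-O2 experiment (0.0553) and, in the isoflurane experiment, without oil animal 3 (0.0549), BDCM animal 2 (0.0593) or BDCM animal 3 (0.0539). Cxcl10 was on the higher side (0.97 ± 0.43, 95% interval 0.02 to 1.92) without passing (adjusted p = 0.0987).

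Class I presentation was read through the immunoproteasome, the peptide transporter and the light chain. Psmb10, a catalytic subunit of the immunoproteasome, was at 2.66, 2.68 and 2.82 in oil and 3.06, 3.45 and 3.72 in BDCM animals under CO2-O2. Under isoflurane it was at 2.95, 2.64 and 2.97 against 3.18, 3.69 and 3.34. All treated animals lay above all controls of both experiments. The mean effect for Psmb10 was 0.62 ± 0.13 (adjusted p = 0.00347), with 0.69 (adjusted p = 0.0231) and 0.55 (adjusted p = 0.0451) in the 2 experiments, and with slide as a block the adjusted p of the mean effect was 0.0819.

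The partner subunits Psmb9 and Psmb8 did not pass in the mean effect. Psmb8 was at 0.78, 0.96 and 1.02 in oil and 1.01, 1.50 and 1.92 in BDCM animals under CO2-O2, and at 0.97, 0.50 and 1.14 against 0.86, 1.22 and 1.12 under isoflurane. The groups of both experiments overlapped, and the mean effect was 0.38 ± 0.16 (adjusted p = 0.0885). Psmb9 gave 0.40 ± 0.14 (adjusted p = 0.0518), and 8 of 28 alternative settings brought it under 0.05, the lowest 0.0119 without BDCM animal 1 of the CO2-O2 experiment.

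Tap1 and Tap2 form the transporter that carries peptides into the endoplasmic reticulum. Tap1 was at -1.76, -1.79 and -1.42 in oil and -1.50, -0.62 and -0.65 in BDCM animals under CO2-O2, and at -1.24, -1.65 and -1.04 against -0.92, -0.78 and -0.97 under isoflurane. BDCM animal 1 of the CO2-O2 experiment lay within its controls, and the isoflurane groups were separate. Tap2 was at 0.76, 0.83 and 0.96 in oil and 1.22, 1.76 and 1.80 in BDCM animals under CO2-O2, and at 1.01, 0.15 and 0.50 against 0.63, 1.55 and 1.13 under isoflurane. Its groups were separate under CO2-O2 and overlapped under isoflurane.

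Both transporter genes rose in the mean effect, by 0.58 ± 0.17 for Tap1 (adjusted p = 0.0201) and 0.65 ± 0.19 for Tap2 (adjusted p = 0.0207). No single experiment passed for either gene with these probes. A dimmer probe of each rose under CO2-O2 (0.62, adjusted p = 0.0295, for Tap1 and 0.80, adjusted p = 0.0452, for Tap2). Blocking by slide gave adjusted p of 0.107 and 0.131, and scan day as a block ended the Tap2 call (0.0668).

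B2m, the light chain of all class I molecules, went the other way. It was at 7.31, 7.18 and 7.56 in oil and 7.11, 7.14 and 7.29 in BDCM animals under CO2-O2, which overlapped, and at 7.39, 7.37 and 7.44 against 7.10, 7.12 and 6.99 under isoflurane, which did not. The mean effect was -0.25 ± 0.07 (adjusted p = 0.0179). All 5 B2m probes gave negative mean effects, from -0.49 to -0.21. The call was lost with slide as a block (0.129), scan day as a block (0.0737) and normexp background correction (0.121).

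Other genes of class I presentation, from a list of 35 (27 tested), rose in 14 cases and fell in 0 by limma, beside 17.7% and 20.4% of all features. At an unadjusted p under 0.05 they numbered 16 and 0, beside 16173 of all 34218 features in either direction. Their median mean effect was 0.24. With slide as a block 2 were higher and with scan day 9. Tapbp (tapasin), which holds the class I molecule at the transporter, was at 0.48, 0.23 and 0.21 in oil and 0.95, 0.91 and 1.15 in BDCM animals under CO2-O2, and at 0.24, 0.12 and 0.11 against 0.93, 1.28 and 0.89 under isoflurane. Every treated animal exceeded every control, and the mean effect of 0.79 ± 0.09 (adjusted p = 8.31e-05) passed with slide as a block too (0.00791). RT1-A2, a classical class I heavy chain, gave 0.74 ± 0.16 (adjusted p = 0.00447), a call that was lost with slide as a block (0.114). The RT1 genes are near-identical copies, so that counts of them are not counts of independent genes.

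Class II genes fell. Ciita, the transactivator, was at -2.10, -1.79 and -1.42 in oil and -3.31, -2.18 and -2.34 in BDCM animals under CO2-O2. In the isoflurane animals Ciita was at -1.38, -1.51 and -1.71 against -3.51, -3.62 and -3.55. Treated animals lay below controls without overlap in both experiments, and the 3 isoflurane BDCM animals were the lowest of all. Averaged over both experiments, the difference was -1.43 ± 0.19 (adjusted p = 2.76e-04), from -0.84 ± 0.27 under CO2-O2 (adjusted p = 0.0511) and -2.03 ± 0.27 under isoflurane (adjusted p = 4.66e-04). Within 1 slide the differences were -0.41 and -1.86. A second, dimmer Ciita probe gave a mean effect of -1.65 (adjusted p = 1.76e-04).

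Cd74, the invariant chain that guides class II molecules to the endosome, was at 4.51, 4.95 and 5.38 in oil and 3.73, 4.54 and 4.53 in BDCM animals under CO2-O2, which overlapped through oil animal 1. Under isoflurane it was at 5.64, 5.54 and 5.58 against 4.04, 3.97 and 4.49, with a clear gap. The mean effect for Cd74 was -1.05 ± 0.18 (adjusted p = 0.00143), from -0.68 ± 0.26 (adjusted p = 0.094) and -1.42 ± 0.26 (adjusted p = 0.00328). Both class II mean effects passed with slide as a block, at adjusted p = 0.0271 for Ciita and 0.0395 for Cd74.

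Other class II genes, from a list of 15 (14 tested), fell in 6 cases and rose in 0 by limma, beside 20.4% and 17.7% of all features. At an unadjusted p under 0.05 they numbered 10 and 1, beside 16173 of all 34218 features in either direction. Their median mean effect was -0.53. Under isoflurane 7 fell and under CO2-O2 1, beside 12.9% and 9.85% of all features, with medians of -0.92 and -0.12. By the limma test of the difference, 0 of 14 differed between the experiments. At an unadjusted p under 0.05 there were 5, all more negative under isoflurane, beside 1728 of all 34218 features. Leaving out 1 animal changed the isoflurane count to 3 (without oil animal 1), 4 (without oil animal 3) or 2 (without BDCM animal 2), and blocking by slide gave 0. RT1-DMb and RT1-DMa form the molecule that loads class II peptides, and gave -0.87 ± 0.15 (adjusted p = 0.00157) and -0.73 ± 0.16 (adjusted p = 0.00606). RT1-DOb, which restrains that loading, gave -0.79 ± 0.18 (adjusted p = 0.00713). With slide as a block these 3 calls were lost, at adjusted p of 0.0531, 0.0791 and 0.0988 in that order.

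**Figure D4:**
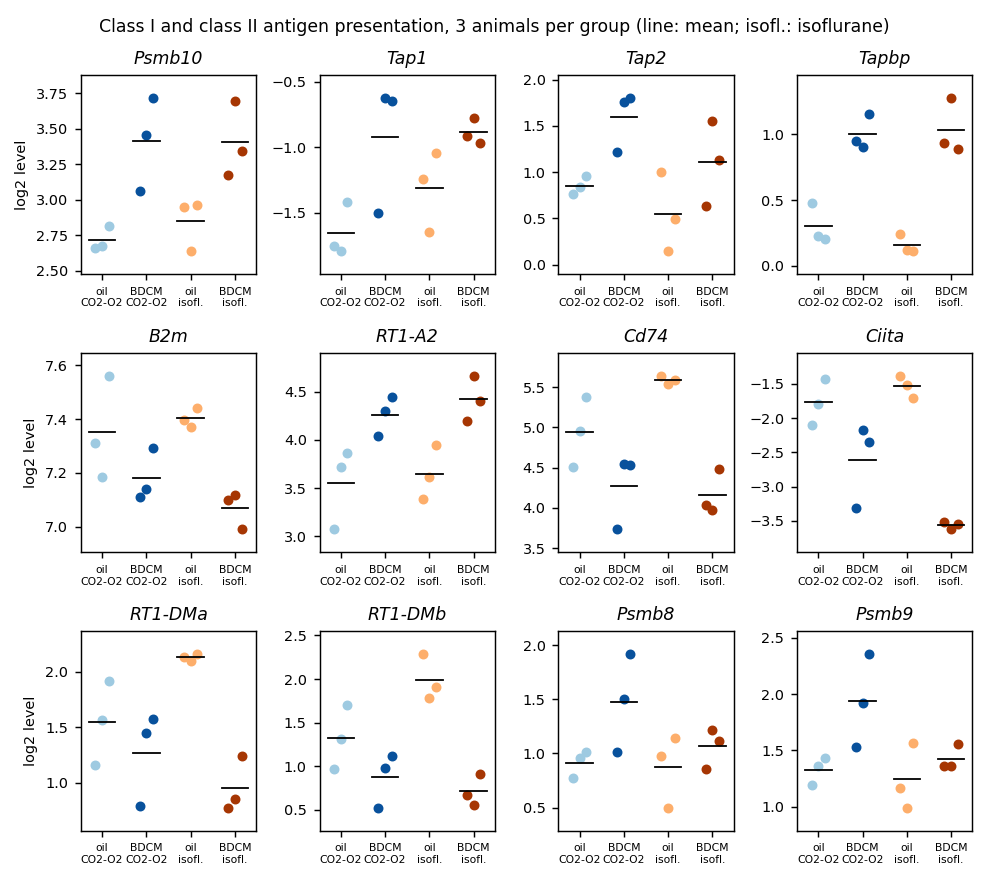
Log2 level (0 is the 75th percentile of the array) of 8 class I and 4 class II genes by animal, as points, with the group mean as a line; each panel has its own y axis. Tapbp and Psmb10 are higher in every treated animal, and Ciita is lower in every treated animal, lowest under isoflurane.

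Markers of other cells were measured beside the class II fall. Beside 20.4% of all features called lower and 17.7% called higher, 1 of 7 pan-leukocyte markers fell (Laptm5) and 0 rose. Their summed signal, in multiples of the 75th percentile, was 35.1 to 41.3 in oil and 28.6 to 39.0 in BDCM animals under CO2-O2, and 30.8 to 40.1 against 26.8 to 35.3 under isoflurane. Of 13 macrophage and dendritic markers tested 1 rose (Cx3cr1) and 0 fell, with summed signals of 117 to 142 and 108 to 162 under CO2-O2 and 91.4 to 130 and 95.3 to 121 under isoflurane. Of this list Cd163 was well above background on 2 arrays and Xcr1 on 0.

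Of the 12 T and NK cell markers and the 4 B cell markers tested, 0 passed in the mean effect by limma. At an unadjusted p under 0.05 in that effect were 3 T and NK markers, all lower, and 0 B cell markers. This stands beside 16173 of all 34218 features in either direction. Cd3e, a T cell receptor subunit, fell under isoflurane (-1.38, adjusted p = 0.0348). T and NK signal summed to 2.36 to 2.74 and 2.15 to 2.59 under CO2-O2 and 2.92 to 3.29 and 2.41 to 3.21 under isoflurane, and B cell signal to 0.70 to 1.13 and 0.964 to 1.45, and 0.617 to 1.39 and 0.596 to 0.772. Beside 20.4% of all features called lower in the mean effect, 4 of 7 endothelial markers fell and 0 rose. The endothelial sum was 76.1 to 84.7 against 60.8 to 73.0 under CO2-O2 and 78.8 to 83.6 against 57.1 to 72.1 under isoflurane. The part of these cells in the fall of class II genes was not tested.

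In the CO2-O2 experiment alone, 7 of 39 genes passed (17.9%, beside 19.9% of all features). The 6 higher genes were Ifi27l2b, Irf1, Irgm, Psmb10, Ifih1 and Ifi47, beside 10.0% of all features called higher, and the 1 lower gene was Mx2, beside 9.85% called lower. Groups did not overlap for 12 genes, 10 of them higher, beside 39.3% of all features. The count of higher genes fell to 3 when any of oil animals 1, 2 or 3 or BDCM animals 2 or 3 was left out, and rose to 13 without BDCM animal 1. The count of lower genes was 0 without oil animal 2, oil animal 3 or BDCM animal 3.

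In the isoflurane experiment alone 8 of 39 passed (20.5%, beside 26.1% of all features). Ifi27l2b and Psmb10 were higher, beside 13.2% of all features called higher, and Ciita, Cd74, Cxcl9, Mx2, Ifi47 and B2m were lower, beside 12.9% called lower. Groups did not overlap for 16 genes, 8 of them higher, beside 43.2% of all features. The count of lower genes was 3 without oil animal 3 or BDCM animal 2. For the count of higher genes, Psmb10 was lost without any 1 of 9 arrays, 4 of them from the other experiment, which share the estimate of the spread, and 5 were higher without BDCM animal 1 of the CO2-O2 experiment.

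The difference between the experiments in the effect of BDCM did not pass for any of the 39 genes by limma, as for 0% of all features. At an unadjusted p under 0.05 there were 4 of the 39 genes, beside 1728 of all 34218 features. They were Ifi47 (-1.08 ± 0.21, isoflurane minus CO2-O2), Ciita (-1.19 ± 0.38), Cxcl9 (-1.22 ± 0.52) and Gbp2 (-0.71 ± 0.30). All 4 were more negative under isoflurane, and their adjusted p was at least 0.895.

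**Figure D5:**
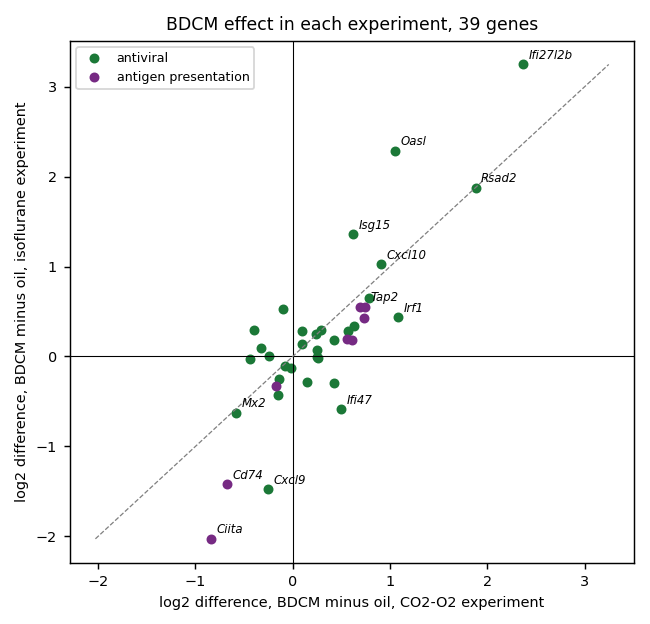
BDCM effect (log2 difference, BDCM minus oil) in the CO2-O2 experiment (x axis) and the isoflurane experiment (y axis) for the 39 genes tested, with antiviral and antigen presentation genes in different colours and a dashed line of equal effects. Ifi27l2b is highest in both, Ciita is lowest in both, and Ifi47 lies at 0.50 and -0.58.

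Between the 2 oil groups, 0 of 39 genes passed by limma, beside 11.1% of all features (7.55% higher and 3.57% lower under isoflurane). An unadjusted p under 0.05 was found for 4 (Ifih1, Igtp, Bst2 and Cd74), beside 9158 of all 34218 features. With each probe as its own feature, the dimmer Dtx3l probe was higher under isoflurane (0.53, adjusted p = 0.00805 by limma). Groups did not overlap for 6 genes, beside 39.1% of all features. Between the BDCM groups, 3 passed (7.69%, beside 17.1% of all features). All 3 were lower under isoflurane, beside 5.30% of all features called lower and 11.8% called higher: Ifi47 (-0.79 ± 0.15, adjusted p = 0.00738), Ciita (-0.95 ± 0.27, adjusted p = 0.0369) and Bst2 (-0.86 ± 0.25, adjusted p = 0.0428). Bst2 (tetherin), which holds budding virus at the cell surface, was at 1.96, 2.44 and 2.60 and at 1.35, 1.60 and 1.80 in the oil animals of the CO2-O2 and isoflurane experiments. In the BDCM animals it was at 2.52, 1.88 and 2.54 and at 1.69, 1.00 and 1.69, so that the isoflurane animals were lower with either treatment. With the 2 BDCM groups compared alone 0 passed, and 1 passed without oil animal 2 or BDCM animal 3 of the CO2-O2 experiment, or without oil animal 1, oil animal 2, BDCM animal 2 or BDCM animal 3 of the isoflurane experiment.

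Upstream of these genes, the interferon transcripts with a probe were at the detection limit, apart from Ifna4. Of 11 interferon genes listed 5 had a probe, and Ifnb1, Ifng, Ifnk and Ifna5 were well above background on 0 of 12 arrays. Ifna4 was measured and rose by 0.26 ± 0.07 (adjusted p = 0.0111), a call that was lost on blocking by slide (adjusted p = 0.241) or by scan day (0.0916). Between the experiments Ifna4 was higher under isoflurane, by 0.565 in the oil groups and 0.705 in the BDCM groups, and both differences passed by limma.

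Of 8 receptor and kinase genes tested, 2 rose and 1 fell, beside 17.7% of all features called higher and 20.4% called lower. Ifngr1, the ligand-binding chain of the interferon gamma receptor, was at 2.83, 3.24 and 2.87 in oil and 2.46, 2.53 and 2.45 in BDCM animals under CO2-O2, and at 2.47, 2.51 and 2.82 against 2.09, 2.22 and 2.37 under isoflurane. Treated animals were lower without overlap in both. It fell by 0.44 ± 0.09 on the log2 scale (adjusted p = 0.00459), whereas its partner chain Ifngr2 rose by 0.33 ± 0.06 (adjusted p = 0.00227) and Il10rb, shared by interferon lambda and interleukin-10 receptors, by 0.26 ± 0.09 (adjusted p = 0.0407). Il10rb did not pass with slide as a block (0.15) or on leaving out any of 8 animals (at most 0.0923, without oil animal 2 of the CO2-O2 experiment), whereas Ifngr1 and Ifngr2 passed with slide as a block (0.0206 and 0.0312). Ifnar1, a chain of the type I interferon receptor, gave 0.04 (adjusted p = 0.695).

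Of 13 further regulators 1 rose and 5 fell, beside 17.7% of all features called higher and 20.4% called lower. Irf5, which serves Toll-like receptor signalling in myeloid cells, was at 0.70, 0.66 and 0.74 in oil and -0.43, -0.15 and -0.19 in BDCM animals under CO2-O2, and at 0.58, 0.71 and 0.82 against 0.01, -0.81 and -0.01 under isoflurane. All treated animals were below all controls, and the mean effect was -0.97 ± 0.14 (adjusted p = 4.21e-04). Socs3, a feedback inhibitor of Janus kinase signalling, gave -0.34 ± 0.10 (adjusted p = 0.0255), and with the mean of its 2 probes 0.27. Its call was lost with slide as a block (0.0723) and on leaving out any of 6 animals (at most 0.0595, without oil animal 3 of the CO2-O2 experiment).

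Of 8 genes of nucleic acid sensing 1 rose and 1 fell: Sting1, the adaptor of cytosolic DNA sensing, by 0.55 ± 0.14 (adjusted p = 0.00974), and the kinase Tbk1 at -0.28 ± 0.09 (adjusted p = 0.0303). The Sting1 call was lost with slide as a block (0.65, adjusted p = 0.0676), and the Tbk1 call on leaving out any of 7 animals (at most 0.0725, without oil animal 3 of the CO2-O2 experiment). Of 33 further interferon-induced effectors 5 rose and 4 fell, with a median of -0.03. For comparison with both lists, 17.7% of all features were called higher and 20.4% lower. Slfn9 (0.77 ± 0.25, adjusted p = 0.0323) and Isg20, an exonuclease (0.72 ± 0.16, adjusted p = 0.00628), were the higher genes named. The Slfn9 call was lost on leaving out any of 8 animals (at most 0.0779, without BDCM animal 2 of the isoflurane experiment). Oas2 gave -0.13 with BDCM (adjusted p = 0.42) and was higher in isoflurane than in CO2-O2 controls (0.80 ± 0.17, adjusted p = 0.0171). That call was lost without oil animal 1 (0.0551) or 2 (0.065) of the CO2-O2 experiment or oil animal 2 (0.0643) of the isoflurane experiment.

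The 15 genes called in the mean effect kept their sign with slide as a block, with scan day as a block and with each animal left out. On the arrays of 1 slide all 15 differences had the sign of the mean effect in each experiment. The slide-blocked mean effect is the average of these same differences. The 15 genes were called on the same arrays, so the kept signs are not independent support. The call itself was kept by 6 with slide as a block (Ifi27l2b, Irf1, Ifih1, Mx2, Ciita and Cd74), by 11 with scan day as a block and by 12 in every leave-one-out fit. In that slide-blocked fit a single BDCM animal carries the CO2-O2 effect, and a single oil animal the isoflurane effect. Of the calls made within 1 experiment, those of Irf1 under CO2-O2 and of Ifi27l2b and Ciita under isoflurane were kept with slide as a block.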

How the data were processed

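The members and gene lists were chosen with earlier results of these data known. The deposited scanner files hold intensity values, background-subtracted and detrended by the authors with Feature Extraction, Agilent's scanner software (version 10.7.1.1 per the file headers, and 10.7 in the submitters' processing notes). Processed signals were divided by the 75th percentile of each array and put on the log2 scale. In the authors' value table, also deposited, each value is a linear ratio of signal to the array's 75th percentile; medians per column are 0.0999 to 0.112, without centring. Over 28538 probes, its isoflurane columns equal their own scanner files, whereas each CO2-O2 column equals the file of a different animal in that group. It was used only for this check and as an alternative setting.

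Of 33356 probes with an accession, 27460 matched 1 RefSeq symbol (assembly GRCr8). The brightest probe stood for a gene. Outlier spots (54 missing values) and 84 spike-in probes were left out, and 34218 of 49397 features passed the filter. The replicates were separate animals, per the series design, and 3 arrays a group limit the precision. Features were fitted with limma 3.58.1 (lmFit, eBayes) in R 4.3.3 with 1 mean per group, with Benjamini-Hochberg adjustment over all features and a threshold of 0.05. The steps were tested on simulated data. Plots came from Python 3.11.15 and matplotlib 3.10.9.

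Genes named are all members and, from each pathway list, up to 3 with the largest mean or control effect plus Ifnar1, Ifngr1, Ifnb1 and Ifng, apart from genes not reported here; markers that were called, Cd163, Xcr1, Ifnk and Ifna5 were named after their values were seen. Alternatives (29) changed scaling, background (normexp, offset 50, on median spot signals), filter, probe choice, model, block and threshold, and left out each animal. They included a fit of the authors' value table. Replicate numbers do not pair the animals: deviations of same-numbered animals correlated from -0.03 to 0.23.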

Additional observations from a re-analysis of the deposited data

Results flagged for a closer look

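The estimated effects of BDCM on Ifi47, a gene of an immunity-related GTPase, differed by -1.08 on the log2 scale (isoflurane minus CO2-O2), a difference that did not pass. All 3 treated animals lay above all 3 controls in the CO2-O2 experiment and all 3 below all 3 controls in the isoflurane experiment. Groups were without overlap for 39.3% and 43.2% of all features in these experiments. Neither call made within 1 experiment was kept with slide as a block. The limma test of that difference gave an unadjusted p of 3.97e-04 and an adjusted p of 0.895 over all features.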

How the results depend on the processing

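Counts of genes passing moved by over 1.5 times as follows. With slide as a block they were 3 higher and 3 lower for the mean effect (10 and 5 reported), 1 and 0 under CO2-O2 (6 and 1), 1 and 1 under isoflurane (2 and 6), 2 and 2 for other class I genes higher in the mean effect and under isoflurane (14 and 7), and 1 and 0 for other class II genes lower (6 and 7). With scan day as a block they were 3 lower for the mean effect, 2 and 0 under CO2-O2, 1 higher under isoflurane, and 9 and 4 for class I. At an adjusted p of 0.01 they were 5 and 3, 2 and 0, and 1 and 2, with 9 and 1 for class I, 2 for class II under isoflurane, and 1 between BDCM groups. With a 2-fold minimum they were 2 and 2, 2 and 0, and 1 and 3, with 0 and 0 for class I, 0 for class II in the mean effect, and 0 between BDCM groups.

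Array weights gave 10 higher and 2 lower under CO2-O2, 1 higher under isoflurane, 2 higher and 1 lower between controls, and 1 between BDCM groups. The lower count under CO2-O2 was 2 with quantile normalization, normexp, the stricter filter, the intensity trend and the replicate block. The higher count under isoflurane was 1 with quantile normalization, no filter and slide as a random block. Class I genes higher under isoflurane numbered 12 with median scaling, 11 with the intensity trend and 2 with groups compared alone. Between controls, normexp gave 1 higher, the stricter filter 2, the trend 1, and median scaling 1 lower; between BDCM groups, no filter gave 1 lower, groups compared alone 0 and the trend 1 higher.

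Leaving out 1 animal gave 3 to 13 higher and 0 to 1 lower under CO2-O2, 1 to 5 higher and 3 to 6 lower under isoflurane, 2 to 10 class I genes higher and 2 to 8 class II genes lower under isoflurane, 0 to 1 higher between controls, and 1 to 4 lower between BDCM groups. With the replicate number as a block, 10 genes were higher and 5 lower in the mean effect, as without it, and no other count but the one above moved by over 1.5 times. Socs3 changed sign with the mean of its probes, at 0.27 in the mean effect and 0.11 under isoflurane. Of the single-gene results, 9396 kept their side of the threshold and direction, 409 lost and 105 gained the call. Blocking by slide or scan day gives no value for contrasts between the experiments, nor do groups compared alone for the mean effect. The causes were not tested.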
